A study of Mus musculus with 10 samples.

Results

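The 10 genes described here encode the main alpha and beta tubulins of the mouse, the paired subunits from which microtubules are built. They were taken by symbol from a table of 55573 genes, as 3 alpha genes (Tuba1a, Tuba1b and Tuba1c) and 7 beta genes (Tubb2a, Tubb2b, Tubb3, Tubb4a, Tubb4b, Tubb5 and Tubb6). RNA was sequenced from cortical cells sorted for a yellow fluorescent protein at postnatal day 3. The Cdk7_KO group, NexCre/+;Cdk7lox/lox, R26EYFP/+, had 5 libraries, and the Ctrl group, NexCre/+;Cdk7+/+, R26EYFP/+, also had 5, each from the sorted cells of 1 mouse. Both genotypes thus carried the Cre driver, inserted in the Neurod6 (Nex) locus of young glutamatergic forebrain neurons, and the EYFP reporter that the driver switches on. Cdk7 encodes the kinase of the CDK-activating complex, which is also a module of the transcription factor TFIIH, and the genotypes were compared to ask which RNA levels differ when neurons lose it.

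An alpha and a beta tubulin fold with the help of chaperonins and cofactors, form a stable dimer and add to the ends of microtubules. The genes of each family encode nearly the same protein and differ most in the acidic C-terminal tail, which projects from the microtubule and is read by motors, severing enzymes and modifying enzymes. Growing cortical neurons make large amounts of tubulin for migration and axon extension, with Tuba1a, Tubb2b and Tubb3 as their hallmark isotypes, and human mutations in these genes cause malformations of the cortex. Tubulin mRNA is also controlled by its own product: free dimers lead to decay of the mRNAs being translated, through recognition of the first residues of the nascent chain by the factor TTC5.

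The start of the coding sequence, where that recognition occurs, is shown first, with codons 2 to 4 in capitals. The sequences were read 5′ to 3′ on the coding strand from GRCm38 with GENCODE M21. The 3 alpha genes have the same 12 bases. The beta genes shown differ from one another within codons 2 and 3 and share codon 4. Their differences are synonymous, so these beta genes encode the same first residues.
Tuba1a: atgCGTGAGTGC
Tubb2b: atgCGAGAGATC
Tubb2a: atgCGCGAGATC
Tubb3: atgAGGGAGATC
Tubb5: atgAGGGAAATC
Tubb4a: atgCGGGAAATC
Tuba1b and Tuba1c share the sequence printed for Tuba1a, and Tubb4b shares the one printed for Tubb3.

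The last 60 coding bases, which encode the C-terminal tail and end in the stop codon, show how far reads can tell the isotypes apart. In the first pair the capitals mark the bases that differ. Tubb2b and Tubb2a lie near each other on chromosome 13 (34126748 to 34130466 and 34074274 to 34078007, both on the minus strand) and differ at 3 of these 60 bases. The 3 differences are synonymous, so both genes encode the same residues over this stretch.
Tubb2b: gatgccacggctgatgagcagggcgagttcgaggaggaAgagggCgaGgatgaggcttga
Tubb2a: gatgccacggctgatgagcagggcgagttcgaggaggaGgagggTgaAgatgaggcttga
Tuba1b and Tuba1a are neighbours on chromosome 15 (98931425 to 98934565 and 98949837 to 98953703, both on the minus strand).
Tuba1c, also on chromosome 15 (99029891 to 99038110, plus strand), and the neuronal Tubb3, on chromosome 8 (123411424 to 123422015, plus strand), are shown with the 2 codons before the stop in capitals.
Tuba1c: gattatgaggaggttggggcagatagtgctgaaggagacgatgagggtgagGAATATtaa
Tubb3: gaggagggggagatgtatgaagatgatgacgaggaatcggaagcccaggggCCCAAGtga

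Over the whole coding sequence, Tuba1a and Tuba1b are 98.3% identical, Tuba1b and Tuba1c 97.9%, Tuba1a and Tuba1c 97.1%, and Tubb2a and Tubb2b 96.5%. The remaining pairs of beta genes are 80.2% to 85.7% identical. Of all windows of 100 bases in the transcript, the share found also in another gene was 65.1% for Tuba1a, 69.5% for Tuba1b and 53.4% for Tuba1c. It was 36.9% for Tubb2a and 27.7% for Tubb2b, which share windows with each other, and 29.2% for Tubb4b, which shares them with its pseudogenes. For Tubb3, Tubb4a, Tubb5 and Tubb6 it was 0%. How reads that match several genes were counted is not given in the sources used here, so the split among the 3 alpha genes, between Tubb2a and Tubb2b, and between Tubb4b and its pseudogenes is uncertain. The other genes lie on chromosome 17 (Tubb4a, 57080066 to 57087782, and Tubb5, 35833921 to 35838306, both minus strand), chromosome 2 (Tubb4b, 25222160 to 25224702, minus strand) and chromosome 18 (Tubb6). A protein-coding model of the annotation, Gm49450, spans Tuba1b and Tuba1a and overlaps both. All 10 have 4 exons in the transcript used.

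Library totals lay between 23497621 and 31233466 counts. Cdk7 was at 5.16 ± 1.30 CPM (counts scaled to the library total) in Cdk7_KO and 15.7 ± 4.00 CPM in Ctrl (SD, n = 5 each), and its ranges did not overlap. Xist and Ddx3y marked 3 Cdk7_KO and 2 Ctrl libraries as male, with replicate numbers 1 to 3, and 2 Cdk7_KO and 3 Ctrl libraries as female, with numbers 4 to 6, so that sex and any difference between these sets cannot be told apart. The 10 projection neuron markers (among them Neurod2, Neurod6 and Slc17a7) summed to 1910 to 2541 CPM in Cdk7_KO and 1617 to 2397 CPM in Ctrl. Markers of cells that the driver does not mark were also present, and their sums were lower on average in Cdk7_KO. The 10 radial glia markers summed to 231 to 889 CPM in Cdk7_KO and 825 to 1380 CPM in Ctrl. The 8 endothelial and pericyte markers summed to 47.8 to 260 CPM in Cdk7_KO and 186 to 1172 CPM in Ctrl, and no marker of any list was at 0 in any library.

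Tubulin RNA was abundant in every library. The 10 genes together held 2.03% ± 0.12 of all counts in Cdk7_KO and 1.91% ± 0.18 in Ctrl (SD, n = 5 each). Divided by exon length, the order of the mean levels was the same in both genotypes. Tuba1a, the main alpha tubulin of young neurons, was highest, at 3313 ± 422 CPM per kb in Cdk7_KO and 3170 ± 396.1 CPM per kb in Ctrl. Tubb2b followed at 2245 ± 98.4 and 2058 ± 152 CPM per kb in Cdk7_KO and Ctrl, and Tubb3, the neuron-specific beta tubulin, at 1588 ± 100.2 in Cdk7_KO and 1447 ± 175 in Ctrl. The hallmark isotypes of growing neurons thus took the top places. Tubb5, a beta tubulin of most tissues, had a mean of 1133 CPM per kb in Cdk7_KO and 1088 in Ctrl, and Tubb2a 848 in Cdk7_KO and 834 in Ctrl. The next step down was to Tubb4a, known from myelin-forming cells and mature neurons, with 215 CPM per kb in Cdk7_KO and 194 in Ctrl.

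The remaining 4 isotypes had the lowest levels. Tuba1b had a mean of 137 CPM per kb in Cdk7_KO and 152 in Ctrl, Tubb4b 83.6 in Cdk7_KO and 91.8 in Ctrl, and Tuba1c 60.9 in Cdk7_KO and 47.7 in Ctrl. Tubb6, at 1.25 ± 0.69 CPM per kb in Cdk7_KO and 3.87 ± 2.26 in Ctrl (SD, n = 5 each), was far below the rest. In Ctrl, the ranges of neighbouring genes in this order did not overlap. In Cdk7_KO they did so only for Tubb4b and Tuba1c, where Tubb4b was the higher in 4 of 5 libraries.

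**Figure D1:**
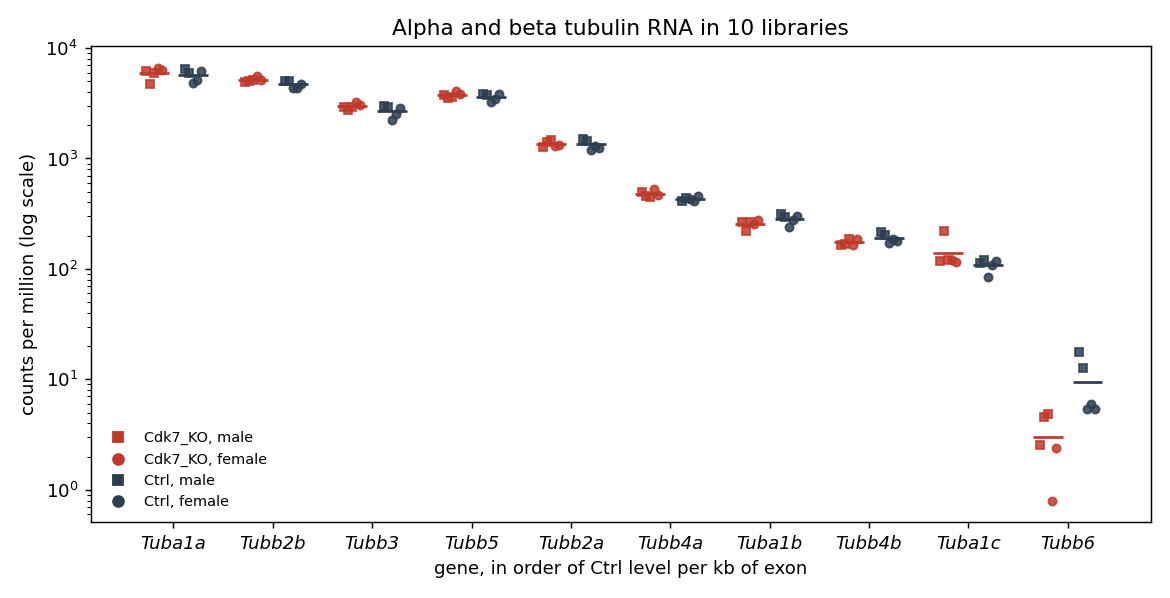
CPM of each tubulin gene (log axis), with Cdk7_KO libraries on the left and Ctrl libraries on the right of each gene, squares for male and circles for female libraries, and a line at the group mean. The groups overlap for every gene but Tubb6, whose Cdk7_KO libraries lie between 0.799 and 4.90 CPM and all below the Ctrl libraries.

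No tubulin gene passed the correction over all genes in the comparison of Cdk7_KO with Ctrl. In R, edgeR's quasi-likelihood test called 0 of the 10 with an adjusted p under 0.05, where 0% of the 15578 genes tested were called. At an unadjusted p under 0.05 it gave 3 tubulin genes as higher (4.9% of all genes) and 1 as lower (10.5% of all genes). All 10 passed the filter on low counts. Their median log2 fold change was 0.11, with 7 positive and 3 negative, and the median over all genes tested was 0.01. DESeq2 called 0 of the 10, against 3.55% of all genes to which it gave an adjusted p (3.3% lower and 0.258% higher). Cdk7, the deleted gene, had the smallest unadjusted p of all genes in the edgeR test and did not pass its correction. Its log2 fold change was -1.54 (edgeR adjusted p = 0.161, DESeq2 adjusted p = 2.26e-08). A gene that edgeR did not call is thus not shown to be unchanged. The CPM ranges of the genotypes did not overlap for 1 tubulin gene, Tubb6, against 3.02% of all genes (2.41% lower and 0.61% higher). As these are bulk samples, fewer cells of a type and less RNA per cell cannot be told apart in any of these values.

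Tuba1a was measured at 6189, 4694, 5943, 6649 and 6388 CPM in Cdk7_KO replicates 1 to 5, and at 6518, 5964, 4853, 5088 and 6158 CPM in Ctrl replicates 1, 3, 4, 5 and 6. Replicate 2 was the lowest Cdk7_KO library, and it lay below all 5 Ctrl libraries, while the other 4 Cdk7_KO libraries lay within or just above the Ctrl range. This gave a log2 fold change of 0.12 (SE 0.11, 95% interval -0.13 to 0.36, edgeR adjusted p = 0.678). Tuba1b, an alpha tubulin used by most cell types, was at 266, 219, 267, 252.5 and 276 CPM in Cdk7_KO and at 316, 294, 237, 277 and 299 CPM in Ctrl, in the same order of replicates. The groups overlapped, with 4 of 5 Ctrl libraries above every Cdk7_KO library. Its log2 fold change was -0.10 (SE 0.09, 95% interval -0.30 to 0.10, edgeR adjusted p = 0.640).

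Tuba1c had the largest positive fold change of the 10, and that value rested on a single library. It was at 118, 221, 120.1, 120.5 and 117 CPM in Cdk7_KO replicates 1 to 5, and at 114, 119.5, 85.3, 109.6 and 117 CPM in Ctrl replicates 1, 3, 4, 5 and 6. Replicate 2 of Cdk7_KO stood apart at 221 CPM, and the other 9 libraries of both genotypes lay between 85.3 and 120.5 CPM. Over all libraries the log2 fold change was 0.40 (SE 0.18, unadjusted p = 0.0407, edgeR adjusted p = 0.300). Without that library it was 0.18 (SE 0.10, unadjusted p = 0.101, edgeR adjusted p = 0.444). The same library had the lowest Tuba1a level of the 5 Cdk7_KO libraries, so that its ratio of Tuba1a to Tuba1c was 21.2, against 49.5 to 55.2 in the other 4 Cdk7_KO libraries and 46.4 to 57.3 in the Ctrl libraries. Gm14150, a processed pseudogene that shares windows with Tuba1b, was at 68.6 CPM in this library and at 4.59 to 39.7 CPM in the others. Whether this library differs in expression or in the assignment of reads was not tested.

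**Figure D2:**
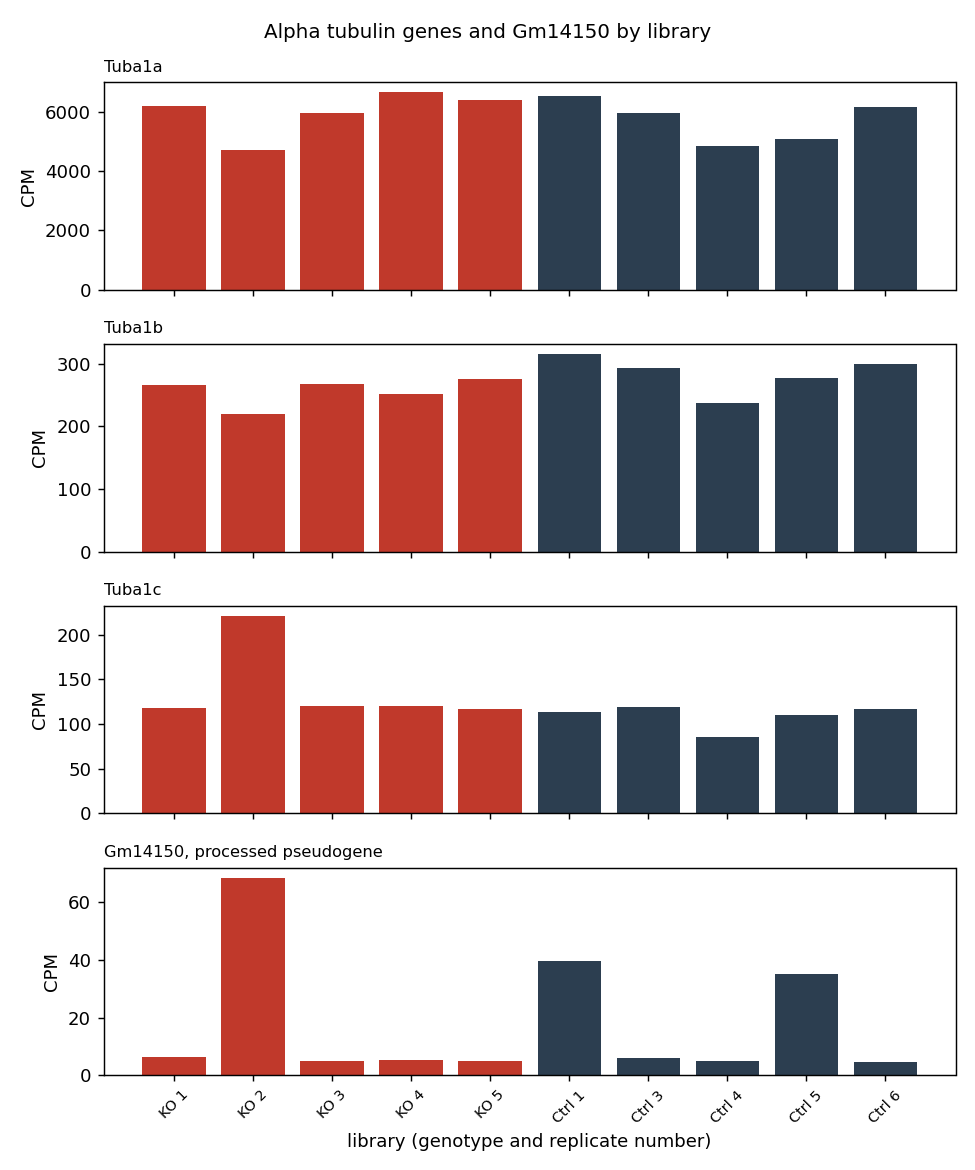
CPM of Tuba1a, Tuba1b, Tuba1c and the processed pseudogene Gm14150 as bars for each library, 5 Cdk7_KO on the left and 5 Ctrl on the right. Tuba1c and Gm14150 are highest in Cdk7_KO replicate 2 (221 and 68.6 CPM), where Tuba1a is at 4694 CPM.

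Among the beta tubulins of growing neurons, Tubb2b was at 4957, 5069, 5094, 5541 and 5090 CPM in Cdk7_KO replicates 1 to 5 and at 5068, 5046, 4354, 4368 and 4769 CPM in Ctrl replicates 1, 3, 4, 5 and 6. The Cdk7_KO libraries lay together in the upper part of the Ctrl range or above it, and 3 Ctrl libraries, all female, lay below every Cdk7_KO library. The fitted log2 fold change was 0.18 (SE 0.07, 95% interval 0.03 to 0.33, unadjusted p = 0.0241, edgeR adjusted p = 0.248). Tubb3 was at 2910, 2739, 2909, 3247 and 3022 CPM in Cdk7_KO and at 2983, 2920, 2222, 2508 and 2880 CPM in Ctrl. The groups overlapped, and the lowest libraries were the Ctrl replicates 4 and 5. Its log2 fold change was 0.19 (SE 0.09, 95% interval -0.02 to 0.39, edgeR adjusted p = 0.375).

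Tubb4a was at 498, 453, 445, 531 and 471 CPM in Cdk7_KO and at 414, 437, 433, 412 and 462 CPM in Ctrl, in the same order. Only Ctrl replicate 6 reached into the Cdk7_KO range. With a log2 fold change of 0.21 (SE 0.07, 95% interval 0.05 to 0.36), Tubb4a had the smallest unadjusted p of the genes with a positive difference, 0.0140, and did not pass the correction (edgeR adjusted p = 0.208). Tubb5 averaged 3770 ± 241 CPM in Cdk7_KO and 3618 ± 274 CPM in Ctrl (SD, n = 5 each), a log2 fold change of 0.11 (SE 0.08). Tubb2a averaged 1365 ± 81.9 CPM in Cdk7_KO and 1343 ± 134 CPM in Ctrl, a log2 fold change of 0.07 (SE 0.07). Tubb4b, a widely expressed beta tubulin also used in cilia, averaged 175 ± 11.1 CPM in Cdk7_KO and 192 ± 18.5 CPM in Ctrl, a log2 fold change of -0.08 (SE 0.08). For Tubb5, Tubb2a and Tubb4b the groups overlapped and the 95% intervals, from -0.25 to 0.28 at their widest, included 0.

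Tubb6, a beta tubulin of non-neuronal cells, was the exception in size and in the separation of the groups. It was at 2.56, 4.53, 4.90, 0.799 and 2.39 CPM in Cdk7_KO replicates 1 to 5 and at 17.7, 12.6, 5.45, 5.97 and 5.44 CPM in Ctrl replicates 1, 3, 4, 5 and 6. Every Cdk7_KO library was below every Ctrl library, and within Ctrl the male libraries, replicates 1 and 3, were the highest. These levels rest on 19 to 121 counts per Cdk7_KO library and 135 to 415 counts per Ctrl library. The Cdk7_KO mean was 32.2% of the Ctrl mean, with a log2 fold change of -1.60 (SE 0.46, 95% interval -2.61 to -0.59). It did not pass the correction over all genes (unadjusted p = 0.00481, edgeR adjusted p = 0.174, DESeq2 adjusted p = 0.0622). Without Ctrl replicate 1, the library with the highest level, the log2 fold change was -1.24.

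With sex added as a factor, Tubb6 was the only tubulin gene that edgeR called lower. Its log2 fold change was then -1.82 (SE 0.27, edgeR adjusted p = 0.00856), in a fit that called 4.4% of all genes lower. Within the male libraries it was -1.91 (SE 0.32) and within the female libraries -1.73 (SE 0.44), and neither passed the correction (edgeR adjusted p = 0.127 and 0.114). The markers of other cells were set beside these Tubb6 levels. All 8 endothelial and pericyte markers had negative fold changes, each with an unadjusted edgeR p under 0.05 (10.5% of all genes). So had all 10 radial glia, all 8 dividing cell and all 5 erythroid markers. The same held for 7 of 8 astrocyte, 6 of 8 oligodendrocyte lineage, 4 of 8 microglia and 0 of 8 interneuron markers. The endothelial and pericyte sum was 108, 149, 260, 47.8 and 147 CPM in Cdk7_KO replicates 1 to 5. In Ctrl replicates 1, 3, 4, 5 and 6 it was 1172, 478, 186, 224 and 206 CPM. The library with the highest Tubb6 level, Ctrl replicate 1, also had the highest sum, and the library with the lowest, Cdk7_KO replicate 4, had the lowest sum. The endothelial and pericyte sums of the genotypes overlapped. Of all the marker sums, only that of dividing cells did not, at 26.1 to 97.8 CPM in Cdk7_KO and 109 to 175 CPM in Ctrl. It was lowest in Cdk7_KO replicate 4 and highest in Ctrl replicate 4. Astrocyte markers summed to 172 to 735 CPM in Cdk7_KO and 598 to 1572 CPM in Ctrl. Erythroid markers summed to 34.7 to 89.4 CPM in Cdk7_KO and 82.0 to 199.8 CPM in Ctrl. Ctrl replicate 1 was the lowest Ctrl library for microglia (86.4 CPM), oligodendrocyte lineage (333 CPM) and interneuron markers (68.9 CPM). Cdk7_KO replicate 4 was lowest in those lists too. With an index of astrocyte, microglia, endothelial and oligodendrocyte markers as a covariate, the log2 fold change of Tubb6 was -0.67 (SE 0.74, edgeR adjusted p = 0.9999). In the same fit Tubb4a was at 0.05 (SE 0.10), Tubb2b at 0.06 (SE 0.10), Tubb3 at 0.08 (SE 0.15), Tuba1a at 0.03 (SE 0.18) and Tuba1c at 0.23 (SE 0.30), against 0.21, 0.18, 0.19, 0.12 and 0.40 without the index. The ranges of this index in Cdk7_KO and Ctrl were separate, so index and genotype cannot be told apart, and the part of other cells in the Tubb6 difference was not tested.

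**Figure D3:**
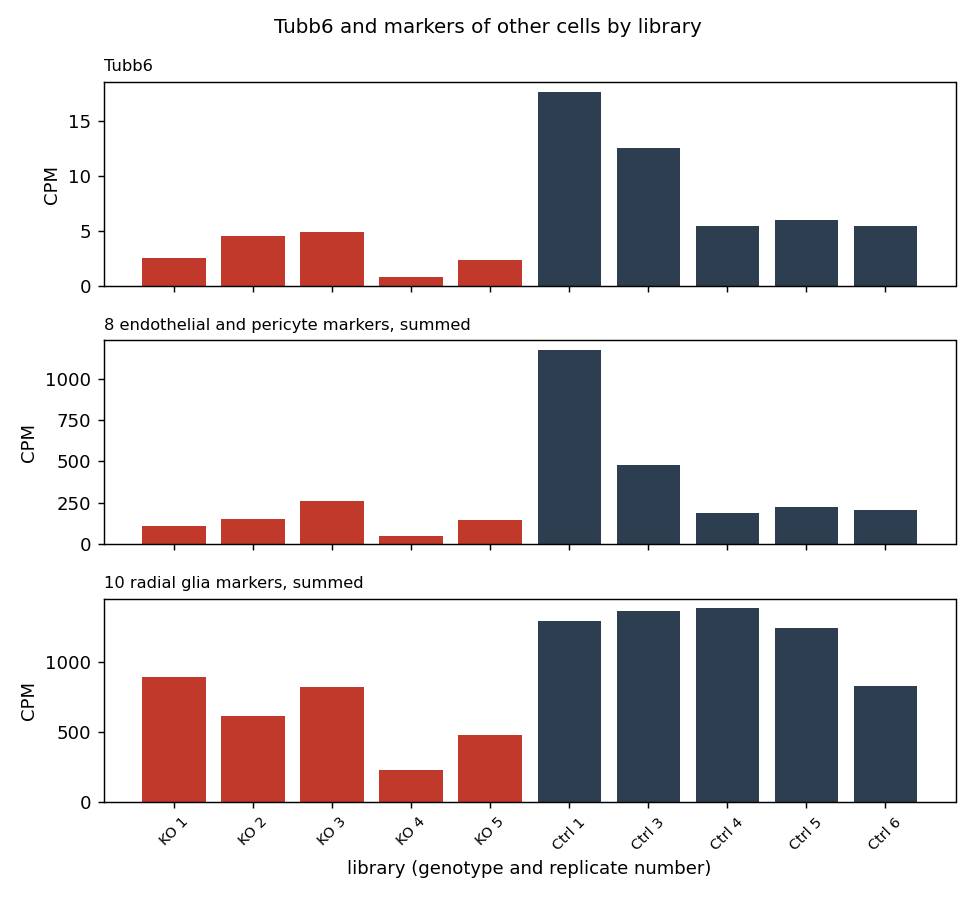
CPM of Tubb6, the summed CPM of 8 endothelial and pericyte markers, and the summed CPM of 10 radial glia markers as bars for each library, 5 Cdk7_KO on the left and 5 Ctrl on the right. Tubb6 and the endothelial and pericyte sum are both highest in Ctrl replicate 1 (17.7 and 1172 CPM) and lowest in Cdk7_KO replicate 4 (0.799 and 47.8 CPM).

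For Tubb6 and Tubb3 the genes with the most similar course over the 10 libraries were listed. Likeness was measured as the root mean square difference in centred log2 CPM among 9670 genes with a mean of at least 10 CPM. For Tubb6 the nearest genes were Wwtr1 (0.256), which encodes the transcriptional coactivator TAZ, Pdgfrb (0.278), the PDGF receptor of pericytes, and Ildr2 (0.282), beside a spread of 1.19 for Tubb6 itself. Their own log2 fold changes were -1.53, -1.56 and -1.15. For Tubb3 the nearest were Tspan13 (0.046), a tetraspanin gene, Gpm6a (0.053), which encodes a neuronal membrane glycoprotein, and Tenm3 (0.054), a teneurin of neuronal connections, beside a spread of 0.19. Their log2 fold changes were 0.20, 0.14 and 0.20. As the 10 libraries are of both genotypes, fold changes near those of Tubb6 and Tubb3 follow from this way of choosing genes. Pdgfrb is also in the list of endothelial and pericyte markers.

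**Figure D4:**
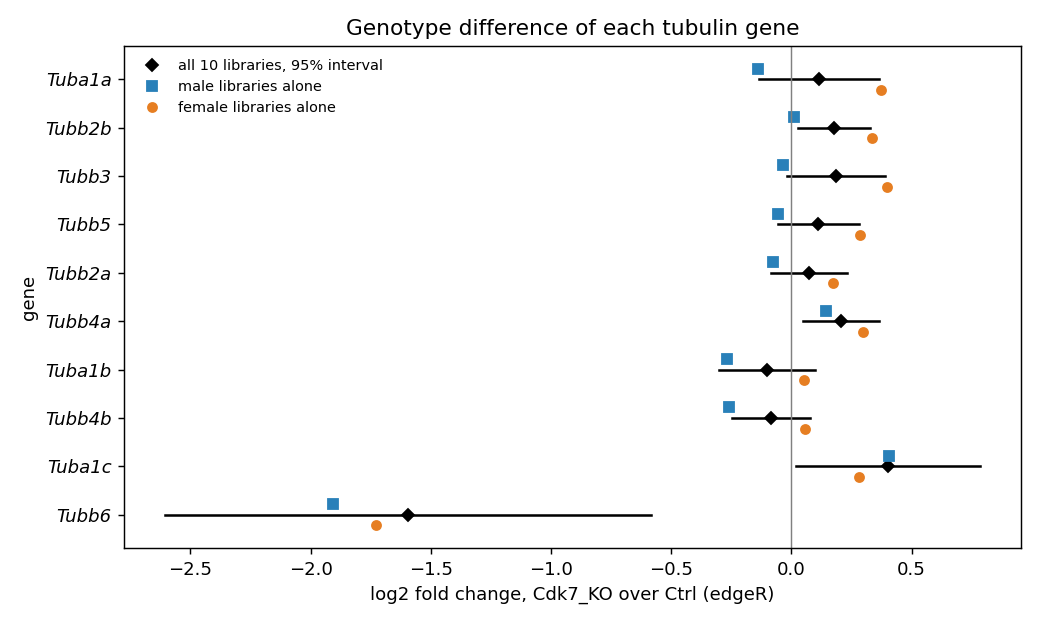
The log2 fold change of each tubulin gene, Cdk7_KO over Ctrl, with its 95% interval over all 10 libraries (black diamonds), and the values within the male and within the female libraries. Tubb6 lies at -1.60, the others between -0.10 and 0.40, and for 9 of the 10 genes the value within the male libraries is below that within the female libraries, Tuba1c being the exception.

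The fold changes of the male and of the female libraries were set side by side and their difference was tested as an interaction of sex and genotype. Of the 10 genes, 9 had a lower fold change in the male than in the female libraries, with a median interaction of -0.31 on the log2 scale, against 0.04 over all genes. At an unadjusted p under 0.05 the interaction of sex and genotype was negative for 6 tubulin genes (2.43% of all genes) and positive for 0 (4.91% of all genes). None passed the correction, and edgeR's interaction term called 0 of 15578 genes, with adjusted p of 0.665 or more for the tubulin genes. The 6 genes were Tuba1a, Tubb2a, Tubb2b, Tubb3, Tubb4b and Tubb5, which were measured in the same libraries and are not independent of one another.

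The abundant neuronal isotypes were among them. Tuba1a averaged 5609 CPM in male Cdk7_KO and 6241 CPM in male Ctrl libraries, and 6519 CPM in female Cdk7_KO and 5366 CPM in female Ctrl libraries. The log2 fold changes were -0.14 (SE 0.11) in the male set and 0.37 (SE 0.13) in the female set, an interaction of -0.50 (SE 0.19, unadjusted p = 0.0234, edgeR adjusted p = 0.665). For Tubb3 the fold change was -0.03 (SE 0.05) in the male set and 0.40 (SE 0.13) in the female set. For Tubb2b it was 0.01 (SE 0.04) in the male set and 0.34 (SE 0.11) in the female set. Tubb5 was at -0.06 in the male set and 0.29 in the female set. Tubb6 was lower in both sets, with an interaction of -0.17 (SE 0.57). The female Ctrl replicates 4 and 5 had the lowest summed tubulin levels of the 10 libraries, and the sets hold 2 or 3 libraries per genotype.

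The summed level showed the same split between the sets. The 10 genes summed to 20168, 18508, 20018, 21936 and 20747 CPM in Cdk7_KO replicates 1 to 5 and to 20982, 20241, 16786, 17683 and 19945 CPM in Ctrl replicates 1, 3, 4, 5 and 6. The groups overlapped, and the Cdk7_KO mean was 106.0% of the Ctrl mean. Within the male libraries it was 94.9%, with the 3 Cdk7_KO libraries below both Ctrl libraries, and within the female libraries 117.7%, with both Cdk7_KO libraries above the 3 Ctrl libraries. Markers of cell types also differed between the sets. The radial glia sum was 231 and 478 CPM in female Cdk7_KO and 825 to 1380 CPM in female Ctrl libraries, and 614 to 889 CPM in male Cdk7_KO and 1286 and 1361 CPM in male Ctrl libraries. The projection neuron sum was 2541 and 2287 CPM in female Cdk7_KO and 1819 to 2397 CPM in female Ctrl libraries, and 1910 to 2266 CPM in male Cdk7_KO and 1617 and 1881 CPM in male Ctrl libraries. The part of these cells in the split was not tested. The ratio of summed alpha to summed beta CPM was 0.457 ± 0.042 in Cdk7_KO and 0.468 ± 0.024 in Ctrl (SD, n = 5 each), with Cdk7_KO replicate 2 lowest at 0.384. The ratio of Tubb2b to Tubb2a was 3.79 ± 0.30 in Cdk7_KO and 3.53 ± 0.20 in Ctrl, and these groups overlapped.

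Shares of the summed tubulin CPM take out the level of the whole family. The major isotypes held close to the same place in both genotypes. Tuba1a took 29.4% ± 2.28 in Cdk7_KO and 29.8% ± 1.09 in Ctrl, Tubb2b 25.4% ± 1.16 in Cdk7_KO and 24.7% ± 0.79 in Ctrl, and Tubb5 18.6% ± 0.47 in Cdk7_KO and 18.9% ± 0.47 in Ctrl (SD, n = 5 each). The differences were smaller than the spread between libraries, with two-sided exact permutation p of 0.810, 0.317 and 0.278. The shares of Tubb2a (6.76% in Cdk7_KO and 7.03% in Ctrl), Tubb4a (2.37% in Cdk7_KO and 2.27% in Ctrl) and Tuba1c (0.698% in Cdk7_KO and 0.569% in Ctrl) also had exact permutation p above 0.4. Without Cdk7_KO replicate 2, the Tuba1c share difference was 0.00485 percentage points, against 0.129 with it. A p that misses the threshold does not show that shares are equal.

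Of the 10 shares compared, 4 had a two-sided exact permutation p under 0.05, without correction over the 10. The smallest p that the assignments of 5 and 5 libraries allow is 0.00794, and both Tuba1b and Tubb6 reached it. Tuba1b took 1.32%, 1.18%, 1.34%, 1.15% and 1.33% in Cdk7_KO replicates 1 to 5 and 1.51%, 1.45%, 1.41%, 1.57% and 1.50% in Ctrl replicates 1, 3, 4, 5 and 6. Each Cdk7_KO library was below all Ctrl libraries, with means of 1.26% ± 0.089 in Cdk7_KO and 1.49% ± 0.057 in Ctrl. Tubb6 took 0.0154% ± 0.0090 in Cdk7_KO and 0.0480% ± 0.0244 in Ctrl, also without overlap. Tubb4b took 0.864% ± 0.078 in Cdk7_KO and 1.00% ± 0.062 in Ctrl (exact permutation p = 0.0238), with overlapping groups.

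The share of Tubb3 was higher, at 14.6% ± 0.17 in Cdk7_KO and 14.1% ± 0.50 in Ctrl (exact permutation p = 0.0159, SD, n = 5 each), with groups that overlapped. Taken within the beta tubulins alone, Tubb3 held 21.3% in Cdk7_KO and 20.7% in Ctrl (exact permutation p = 0.238), a difference of similar size and in the same direction that did not pass 0.05. Tuba1b within the alpha tubulins held 4.04% ± 0.27 in Cdk7_KO and 4.67% ± 0.22 in Ctrl (exact permutation p = 0.00794). Tuba1b was lower in Cdk7_KO in both sexes, with means of 1.28% in Cdk7_KO and 1.48% in Ctrl among the male libraries and 1.24% in Cdk7_KO and 1.49% in Ctrl among the female libraries. Neither set overlapped, and both reached an exact permutation p of 0.1, the smallest that 10 assignments allow. Summed over the near-identical genes, Tuba1a, Tuba1b and Tuba1c took 31.3% in Cdk7_KO and 31.9% in Ctrl (exact permutation p = 0.722). The marker sums of other cells given above were lower on average in Cdk7_KO, and their part in the shares of Tuba1b and Tubb4b was not tested.

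**Figure D5:**
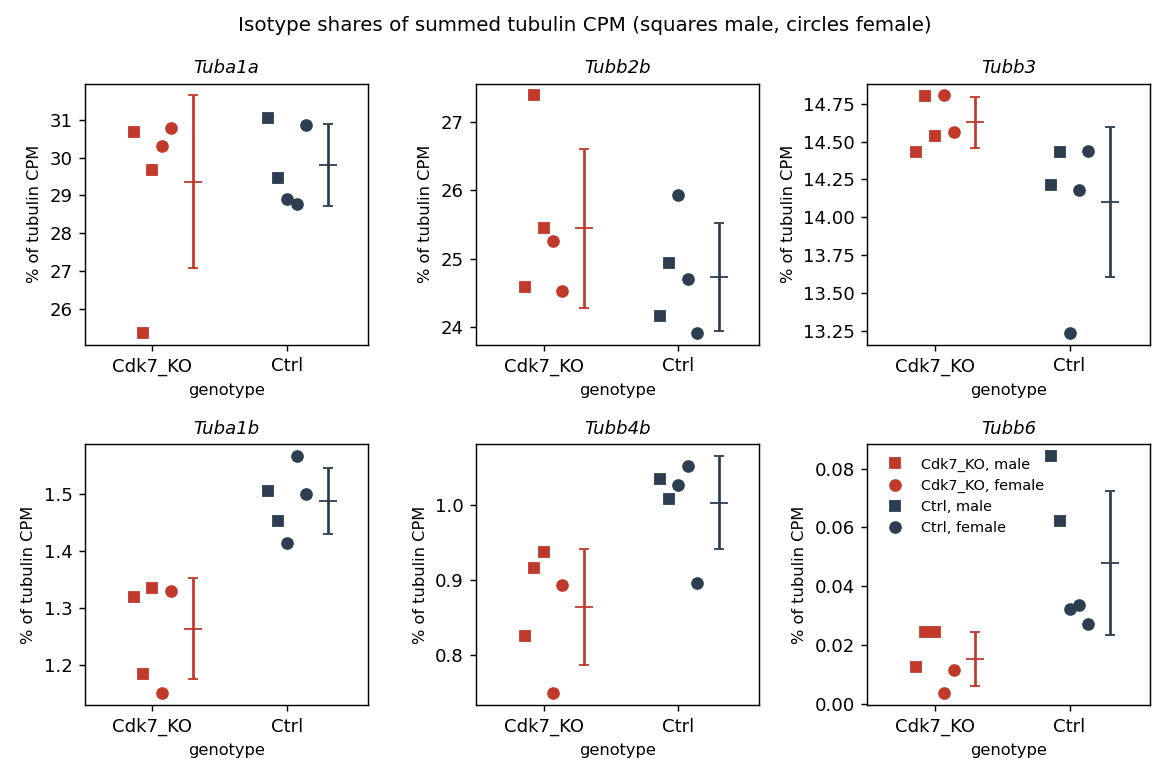
Share of the summed tubulin CPM (in %) of 6 isotypes in Cdk7_KO (left) and Ctrl (right), with each library as a square (male) or circle (female) and the group mean with bars of 1 SD beside them; each panel has its own axis, most not starting at 0. The Tuba1b and Tubb6 shares do not overlap between genotypes, with means of 1.26% in Cdk7_KO and 1.49% in Ctrl, and 0.0154% in Cdk7_KO and 0.0480% in Ctrl.

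The genes that act on tubulin were read from the same fit, in 6 lists. In none of them did edgeR or DESeq2 call a gene after correction. Over all genes edgeR called 0% and DESeq2 3.55% (3.3% lower and 0.258% higher), so 0 calls in these short lists say little. Of 22 genes for tubulin folding, which include the CCT chaperonin, prefoldin and the tubulin cofactors, 20 had a positive fold change and 7 were higher at an unadjusted p under 0.05 (4.9% of all genes), with 0 lower and a median of 0.11. These genes were measured in the same libraries and are not independent of one another. Of the 10 projection neuron markers, 0 had a negative fold change and 3 were higher at that p (4.9% of all genes). Pfdn2, a prefoldin subunit, was at 104 ± 4.28 CPM in Cdk7_KO and 92.6 ± 6.81 CPM in Ctrl, a log2 fold change of 0.22 (SE 0.07, edgeR adjusted p = 0.183). Vbp1, another prefoldin subunit, had a log2 fold change of 0.18 (SE 0.06), and the chaperonin subunit gene Cct6a 0.17 (SE 0.06). These 3 were named for the smallest p of the list. Only Cct6a among them had groups without overlap (0.61% of all genes were higher without overlap). It was at 383 ± 9.55 CPM in Cdk7_KO and 352 ± 18.1 CPM in Ctrl.

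Enzymes that modify tubulin gave 3 genes higher and 1 lower at an unadjusted p under 0.05 of 22 tested of 27 listed (4.9% and 10.5% of all genes), with a median of 0.07. Atat1, the acetyltransferase of alpha tubulin in the microtubule lumen, was at 392.4 ± 23.7 CPM in Cdk7_KO and 345 ± 15.9 CPM in Ctrl (log2 fold change 0.24, SE 0.06, edgeR adjusted p = 0.163). Svbp, the partner of the vasohibins that remove the C-terminal tyrosine of alpha tubulin, had a log2 fold change of 0.23 (SE 0.09). Agbl4, a carboxypeptidase that trims glutamates, was at 0.555 ± 0.233 CPM in Cdk7_KO and 1.27 ± 0.27 CPM in Ctrl (log2 fold change -1.13, SE 0.37, edgeR adjusted p = 0.190). Its groups did not overlap (2.41% of all genes were lower without overlap). The tails printed above are where the enzymes of detyrosination and glutamylation act.

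Among the severing genes, which cut microtubules along their length, Spast had a log2 fold change of 0.14 and Katna1 -0.28. The gamma-tubulin ring complex, which nucleates microtubules, had 11 genes tested and 0 at an unadjusted p under 0.05 (15.4% of all genes in either direction), with a median log2 fold change of -0.02 and Mzt1 (0.14), Tubgcp5 (-0.15) and Mzt2 (0.10) as the genes of smallest p. The 12 genes of tubulin mRNA autoregulation, among them Ttc5 and the CCR4-NOT deadenylase, also gave 0, with a median of 0.02; from lists this short, a count of 0 says little. On the same scale Cnot2 had 0.14, Cnot7 0.10 and Scaper 0.11. Of the other 10 tubulin genes, 5 passed the filter on low counts, and Tubg2, a gamma tubulin, was at 31.0 ± 5.43 CPM in Cdk7_KO and 24.98 ± 2.05 CPM in Ctrl (log2 fold change 0.36, SE 0.12, edgeR adjusted p = 0.192). The gamma tubulin gene Tubg1 had a log2 fold change of -0.10 and the alpha tubulin gene Tuba4a -0.08, while Tuba3a, Tuba3b, Tuba8, Tubal3 and Tubb1 had between 0 and 20 counts over all libraries together.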

How the data were processed

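The authors deposited whole-number counts per gene for 10 libraries, with no normalization, per the file headers and the values. Per the series' design text, each library is 1 preparation of sorted neurons from 1 of 5 mice per genotype. STAR, Salmon and GRCm38 stand in the submitters' processing notes. The role of each tool and the handling of strand and of reads matching several genes were not given in the sources used here. Directional libraries were made from polyA RNA, per the labels' protocols.

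The table lists 55573 gene IDs, of which 28204 had a count and 55480 matched GENCODE M21 on GRCm38, the source of positions, exon lengths and sequences (93 did not match). 0 count columns were left unmapped. The chi-square per gene between any pair of libraries was at least 8.53, so none was a copy of another.

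The main test was edgeR 4.0.16 in R 4.3.3 (filterByExpr by group with a minimum count of 10, TMM factors, estimateDisp, glmQLFit and glmQLFTest). The model held genotype only, and p-values were adjusted by Benjamini-Hochberg over 15578 genes with a threshold of 0.05. Standard errors were derived from the F value. CPM were computed on library totals, and log2 fold changes are Cdk7_KO over Ctrl. An isotype share is the count of 1 gene as a percent of the counts of all 10. Shares were compared by a two-sided exact permutation test of the difference of means, written for this purpose and checked against scipy 1.17.1 on random values. The summed level got no test, and no p was adjusted over the tubulin genes alone. The edgeR test was tried on simulated counts with 200 changed genes. Counting error is largest where counts are low, as for Tubb6. The SD of Tubb6 between libraries was 55.5% of the mean in Cdk7_KO and 58.5% in Ctrl, which holds more than counting error.

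Members and lists were chosen with earlier results of these data known. Named genes are the 10 members, Cdk7, up to 3 genes of smallest p in each pathway list, and the 3 genes nearest to Tubb3 and to Tubb6. Cell type markers are given as sums. Gm14150, and the genes of a list named for being near 0, were chosen after their values were seen. As the other-cell index, scaled scores of 4 marker lists (mean log2 CPM, prior count 2) were averaged. Alternatives were DESeq2 1.42.0, limma 3.58.1 (voom), other scalings and filters, each library left out, a replicate block, and sex as a factor or as separate sets. Some items are not reported here.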

Additional observations from a re-analysis of the deposited data

Results flagged for a closer look

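Of 48 group values checked (CPM, shares and ratios of the tubulin genes in each genotype), 10 had a library at the edge of its group that stood apart by Dixon's test. Chance flags about 1 in 20 groups, and values of the same library are not independent.

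Cdk7_KO replicate 2 stood apart in 5 of the 10. Its Tuba1c level was 221 CPM (nearest library of the group 120.5), and its Tuba1c share 1.20% of the summed tubulin CPM. Its Tuba1a share was 25.4% (nearest 29.7%), its ratio of alpha to beta CPM 0.384 (nearest 0.462), and its ratio of Tuba1a to Tuba1c 21.2 (nearest 49.5). Cdk7_KO replicate 4 was highest for Tubb2b, at 5541 CPM (nearest 5094).

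In Ctrl, replicate 4 was lowest for Tuba1c, at 85.3 CPM (nearest 109.6), and for the Tubb3 share, at 13.2% (nearest 14.2%). Ctrl replicate 6 was lowest for the Tubb2a share, at 6.30% (nearest 7.11%), and for the Tubb4b share, at 0.896% (nearest 1.01%).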

How the results depend on the processing

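Among 253 alternative values of the fold changes of the tubulin genes and Cdk7, 241 kept their direction and their side of the threshold, 7 changed sign and 5 passed the threshold that the main value did not. Among the share differences, 135 alternative values kept both, 9 went over 0.05, of which 8 were within the male or the female libraries, and 6 changed sign.

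Against 0 genes called over the whole table (763 higher and 1630 lower at an unadjusted p under 0.05), DESeq2 called 578, the fit without a filter on low counts 1, the fit with the replicate block 5, and the fit with sex as a factor 732. Leaving out single libraries gave 0 to 5. Whether the replicate numbers pair the libraries is not known. Libraries of the same number had correlations of -0.104, 0.314, 0.143 and 0.173, and those of different numbers were not compared. Under the replicate block no tubulin gene was called (Tubb6 -1.96, edgeR adjusted p = 0.0825). Scaling by library totals moved the median fold change by -0.05.

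Fold changes that changed sign were those of Tuba1a (-0.14), Tubb2a (-0.075), Tubb3 (-0.035) and Tubb5 (-0.057) within the male libraries, of Tuba1b (0.054) and Tubb4b (0.057) within the female libraries, and of Tubb5 with the other-cell index (-0.014). Share differences in percentage points that changed sign were those of Tuba1a within the alpha pool (0.130), without Cdk7_KO replicate 2 (0.553; -0.804 to 0.553 over single libraries left out) and within the female libraries (1.03), of Tubb5 within the male libraries (0.0479), and of Tuba1c (-0.0156) and Tubb4a (-0.0638) within the female libraries. Against 4 shares under 0.05, 0 were so within the male or the female libraries, where 10 assignments cannot go below 0.1, and 3 of 7 with near-identical genes summed. Leaving out single libraries gave 4 each time. The summed Cdk7_KO level, 106.0% of Ctrl, was 94.9% for male and 117.7% for female libraries, and 103% to 109% without single libraries. The causes were not tested. Of the tubulin genes, Tubb6 has the largest counting error.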

Other observations

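Gm14150, a processed pseudogene that shares sequence with Tuba1b (chromosome 2, 151458956 to 151460309, plus strand, GRCm38), was high in 3 libraries and low in the other 7. It had 1755 counts (68.6 CPM) in Cdk7_KO replicate 2, against 933 counts (39.7 CPM) in Ctrl replicate 1 and 991 counts (35.0 CPM) in Ctrl replicate 5. The other 7 libraries had 122 to 182 counts (4.59 to 6.20 CPM). Cdk7_KO replicate 2 was also the library with the high Tuba1c level, while Ctrl replicates 1 and 5 had Tuba1c levels of 114 and 109.6 CPM, within the range of the other libraries. These 3 libraries are of both genotypes and both sexes. The cause was not tested.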
